A study of Homo sapiens with 4 samples.

Results

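The genes for the protein subunits of the mitochondrial ribosome were described in LASCPC-01 cells, a human neuroendocrine prostate cancer line, after treatment with ketotifen or with phosphate-buffered saline (PBS). The members were taken by name, as every row of the deposited expression table whose symbol starts with MRPL or MRPS and a digit. There were 78 such rows of 16376. GENCODE v29 called all 78 protein coding and placed them on 21 chromosomes.

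Poly(A)-selected RNA was sequenced from 4 libraries, 2 of cells given PBS and 2 of cells given ketotifen, an antihistamine and mast cell stabiliser. All 4 were of the same line, labelled wild type, and taken on day 3. The dose is not given in the sources used here. The deposited columns of the ketotifen libraries carry a 5 in their names, whose meaning is not stated. The line is known to have been made by introducing MYCN and an active AKT1 into human prostate basal cells, so every library shares 1 genetic background. The labels do not say whether the cultures behind the libraries of a group were separate, so p-values measure only the spread between libraries, which may be technical. The letters A and B tell apart the libraries of each group and pair nothing across groups. Of the neuroendocrine markers, UCHL1 (434 to 490.2 FPKM), NCAM1 (43.9 to 52.0), INSM1 and ENO2 passed the expression filter. SYP did not exceed 0.594 FPKM, and CHGA and SCG3 were lower still. Of the luminal prostate markers, TMPRSS2 had 13.0 to 14.9 FPKM, and KLK3 did not exceed 0.272. Fibroblast markers summed to 2.12 to 2.96, immune markers to 2.77 to 3.99, and the endothelial markers summed to 0.126 to 0.220 FPKM.

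Mitochondria carry their own ribosome, which translates the few messages of the mitochondrial genome, all of them for subunits of the respiratory chain and ATP synthase. Its RNAs are mitochondrially encoded, while each of its proteins comes from a nuclear gene, is made in the cytosol and is imported. The small subunit (MRPS genes) binds the message and holds the decoding site, and the large subunit (MRPL genes) forms the peptide bond. Some of the proteins descend from bacterial ribosomal proteins and others are found only in mitochondria. In tumour cells these genes are often described together with respiratory capacity and growth.

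Values are FPKM, fragment counts divided by gene length and by a library total, as the authors deposited them. Comparisons were made on log2(FPKM + 1), which understates the change of low genes, in the 10586 genes whose mean reached 1 FPKM. Because FPKM values of a gene are whole multiples of the worth of 1 fragment, whole read numbers could be recovered for 100% of these genes and for all 78 members. The implied scaling totals ran from 32873603 to 36703851 reads per library. Depth therefore differed by at most 1.12 times between libraries, with the ketotifen library A the deepest. Tested members had 107 to 8954 reads per library, with a median of 2093.5. In bulk RNA, fewer cells of a kind and less RNA per cell cannot be told apart.

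Of the 78 members 77 passed the filter and were tested. MRPS24, a small subunit protein with a bacterial counterpart, did not pass. It had 0.274 and 0.0431 FPKM in PBS libraries A and B and 0.0817 in ketotifen library A, and was listed at 0 in ketotifen library B. These values stood for 6, 1 and 2 reads, too few for a comparison. In GENCODE v29, 23.2% of its exon bases lie also in the readthrough gene URGCP-MRPS24 on the same strand, and how the authors' counting treated such shared bases is not given in the sources used here.

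The tested members spanned a 48.4-fold range of mean FPKM, from 5.10 for MRPL42 to 247 for MRPS34, with a median of 42.1 and quartiles of 24.2 and 65.2. After MRPS34, a small subunit protein found only in mitochondria, the highest were MRPL12 at 197 FPKM, MRPS26 at 137, MRPL4 at 119, MRPS2 at 114 and MRPL41 at 106. MRPL12 is the counterpart of the bacterial stalk protein that recruits translation factors to the ribosome. The lowest after MRPL42 were MRPS28 at 5.47, MRPS23 at 7.99, MRPS33 at 10.1, MRPL23 at 10.1 and MRPL19 at 10.8 FPKM. Proteins that share a single particle thus had messages of very unequal level per length. Below MRPS34 the order of neighbours was not separated everywhere: MRPL4 ran from 113 to 122 FPKM over the 4 libraries and MRPS2 from 106 to 126, so their ranges overlapped.

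FPKM divides reads by the gene length the authors used, which the recovered reads gave as 496 bases for MRPL53 up to 7825 for MRPL19. Across the 77 tested members Spearman's rho was -0.43 between that length and mean FPKM and 0.29 between length and reads, as a description over genes that share the same libraries. MRPL42 and MRPS28, next to each other at the bottom in FPKM, show what the division does. MRPL42 had 1363 and 1363 reads with PBS and 1526 and 1231 with ketotifen, over 7780 bases. MRPS28 had 160 and 107 and then 190 and 176 reads over 838 bases. In GENCODE v29, 35.8% of the exon bases of MRPS28 are shared with AC036214.3 on the same strand. The low level of MRPL42 therefore came with a long gene model and that of MRPS28 with few reads. Whether the cells use the whole modelled length of either gene was not tested.

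**Figure D1:**
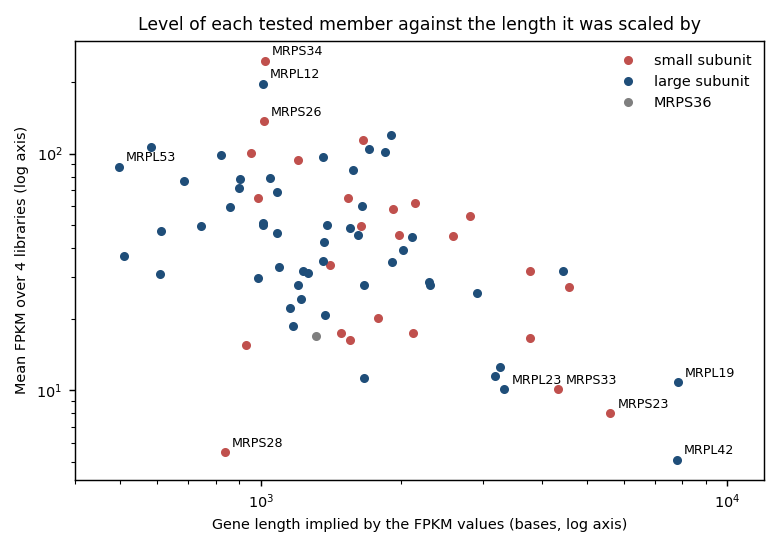
Mean FPKM over the 4 libraries (log axis) against the gene length used for scaling (log axis) for the 77 tested members, 1 point per gene, coloured by subunit. Short gene models mostly lie at higher FPKM, and MRPL42 and MRPL19 stand alone at the longest models.

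The comparison of ketotifen with PBS asks which of these genes changed their RNA level under the drug. By limma on log2(FPKM + 1), no member passed an adjusted p of 0.05 in either direction, where 0.123% of all tested genes did (0.00945% higher and 0.113% lower). Without adjustment, 21 members were under 0.05 with a higher value and 4 with a lower value, against 10.0% and 10.3% of all tested genes. When the recovered reads were tested instead with limma's voom, 10 members were called higher and none lower, against 3.64% and 3.78% of all tested genes. These 10 were MRPL20, MRPL21, MRPL27, MRPL33, MRPL41 and MRPL51 of the large subunit and MRPS12, MRPS16, MRPS21 and MRPS26 of the small subunit. Without PBS library B voom called 3 of them, MRPL27, MRPL33 and MRPL41, without ketotifen library A it called MRPL41 and MRPS12, and without ketotifen library B MRPL27 and MRPL41. Of all tested genes, voom called 0.661% higher and 0.548% lower in the former of these fits and 1.21% and 0.708% in the latter. An exact permutation test on 2 against 2 libraries cannot go below 0.33.

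The differences were small and mostly above 0. The median change over the 77 members was 0.06 on the log2 scale, or 4.003% in FPKM, where the median over all tested genes was -0.02. Changes ran from -0.22 for MRPS11 to 0.49 for MRPL41. The change was above 0 for 55 members and below 0 for 22, while 44.3% of all tested genes were above 0. With the summed FPKM of the 4 libraries made equal, which shifts all genes together, 40 were above 0 and 37 below, and the medians were 0.0049 over the members and -0.06 over all tested genes. With a correction for GENCODE v29 exon length and GC content 47 were above 0 and 30 below. Both ketotifen libraries lay above both PBS libraries for 33 members, below both for 12, and overlapped for 32, against 23.2% and 31.2% of all tested genes above and below. The summed FPKM of the 78 members was 3935 and 3746 in PBS libraries A and B and 4059 and 4094 in ketotifen libraries A and B, or 1.08%, 1.05%, 1.08% and 1.10% of the table.

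**Figure D2:**
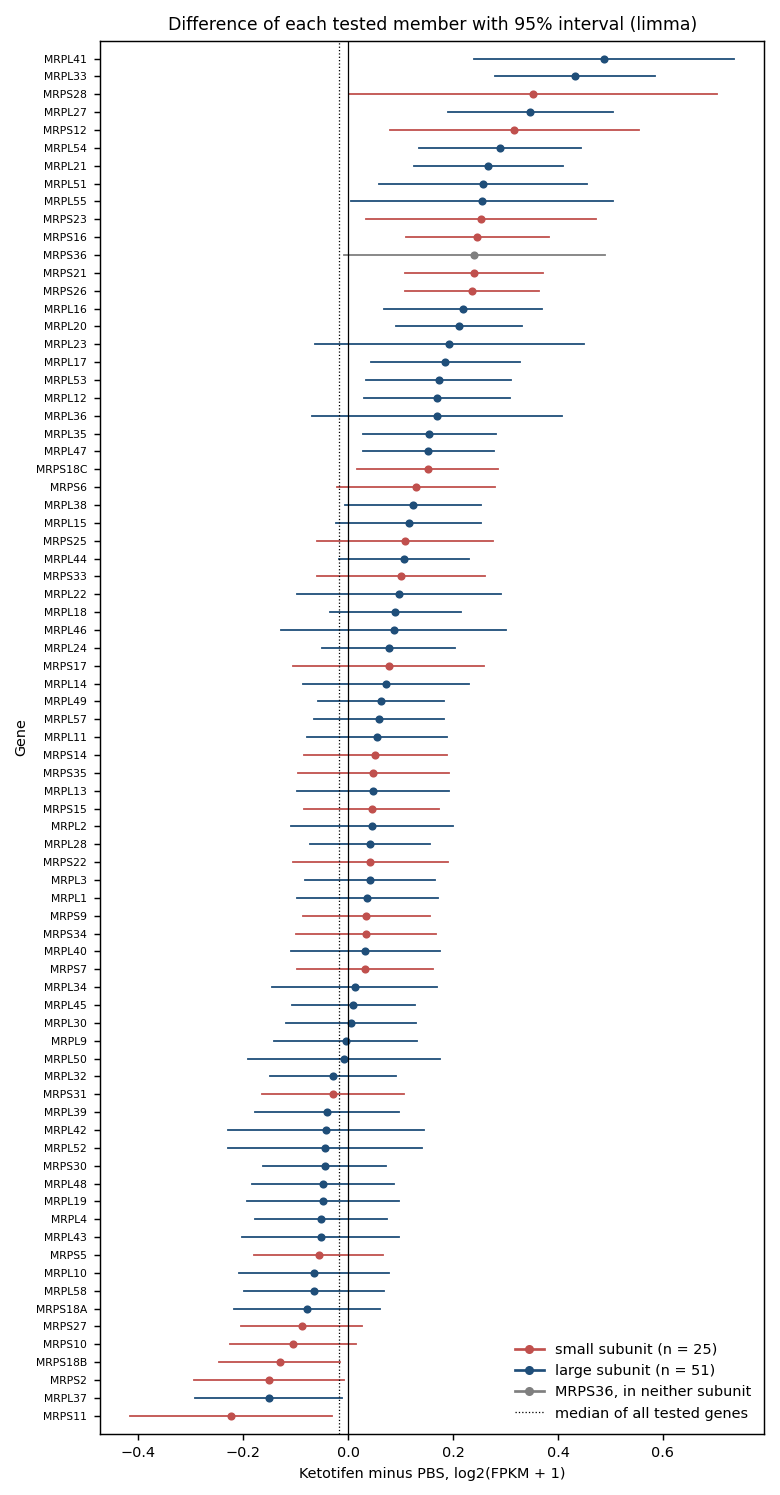
Change in log2(FPKM + 1), ketotifen minus PBS, for each of the 77 tested members with its 95% interval from limma, coloured by subunit, and a dotted line at the median of all tested genes. MRPL41, MRPL33 and MRPS28 stand at the top, MRPS11 at the bottom, and no member passed an adjusted p of 0.05 in limma on FPKM.

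In the large subunit, MRPL41, a protein found only in mitochondria and also described as a BCL2-interacting protein, had the largest change. It lies at chr9:137551199-137552555 (GRCh38, forward strand) and measured 101 and 77.1 FPKM in PBS libraries A and B and 125 and 123 in ketotifen libraries A and B. Both ketotifen libraries were above both PBS libraries, and the PBS libraries were themselves far apart. The means were 88.9 ± 16.7 with PBS and 124 ± 1.59 with ketotifen (SD, n = 2), a log2 change of 0.49 ± 0.11 (SE). The limma adjusted p was 0.102 on FPKM and 0.0026 by voom on reads. MRPL33, a small protein with a bacterial counterpart, lies at chr2:27771717-27988087 on the forward strand. It measured 30.7 and 31.7 FPKM with PBS and 44.9 and 40.0 with ketotifen. Its PBS libraries lay close together and well below both ketotifen libraries. In the other 9 called members PBS library B was the lower of the PBS pair, and in MRPL33 it was slightly the higher. The log2 change was 0.43 ± 0.07 (SE), with a limma adjusted p of 0.0713 on FPKM and 0.0218 by voom. It was also the only member called when genes had to reach a mean of 5 FPKM, with a limma adjusted p of 0.0375. Of the 7723 genes in that fit, 0.194% were called higher and 0.155% lower, where the main fit called 0.00945% and 0.113%. In GENCODE v29, 21.1% of the exon bases of MRPL33 are shared with BABAM2 on the same strand, so reads of the pair may not be separable.

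MRPL27, whose bacterial counterpart reaches toward the site of peptide bond formation, lies at chr17:50367857-50373214 on the reverse strand. Its FPKM was 70.6 and 63.5 with PBS and 89.0 and 82.1 with ketotifen, with no overlap. The log2 change was 0.35 ± 0.07 (SE), with a limma adjusted p of 0.0968 on FPKM and 0.0097 by voom. MRPL21 (chr11:68891276-68903835) rose by voom from 47.3 and 42.9 FPKM to 54.0 and 54.8, a log2 change of 0.27 with a voom adjusted p of 0.0345. MRPL51 (chr12:6491886-6493841) measured 71.2 and 59.2 FPKM with PBS and 80.8 and 74.96 with ketotifen. Here PBS library A came close to ketotifen library B, and the voom adjusted p was 0.0491. MRPL20 (chr1:1401908-1407313), whose bacterial counterpart is needed early in assembly of the large subunit, measured 74.6 and 71.1 with PBS and 84.2 and 84.8 with ketotifen, with a voom adjusted p of 0.0453. The ketotifen libraries of MRPL20 differed from each other by less than the gap between the groups. MRPL54, found only in mitochondria, was not called by either test although its groups did not overlap, at 29.6 and 26.3 FPKM against 34.5 and 34.1 (log2 change 0.29, voom adjusted p = 0.104).

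In the small subunit, MRPS12 is the counterpart of the bacterial decoding-site protein in which streptomycin resistance arises. It lies at chr19:38930548-38933162 on the forward strand and measured 65.1 and 51.3 FPKM with PBS and 69.2 and 75.3 with ketotifen. PBS library A lay near the ketotifen libraries and PBS library B well below. The log2 change was 0.32 ± 0.10 (SE), with a limma adjusted p of 0.167 on FPKM and 0.0292 by voom. MRPS16 (chr10:73248843-73252693), in which mutations cause a respiratory chain deficiency, measured 42.5 and 39.3 with PBS and 49.5 and 47.8 with ketotifen, with a voom adjusted p of 0.0156. MRPS21 (chr1:150293720-150308979) measured 61.8 and 57.3 and then 69.6 and 71.2, with a voom adjusted p of 0.0213. For both genes the libraries of a group lay close together and the groups apart. MRPS26 (chr20:3045945-3048254), found only in mitochondria and the third most abundant member, measured 130.1 and 121 FPKM with PBS and 149 and 147 with ketotifen (log2 change 0.24 ± 0.06, SE, voom adjusted p = 0.0161). GENCODE v29 names 8 pseudogenes of MRPS21, 3 of MRPS16 and 1 each of MRPL20 and MRPL51, whose reads may be assigned to either copy. Counting both strands, other genes share 31.3% of the exon bases of MRPL51, 16.3% of MRPS12, 15.5% of MRPL20 and 14.9% of MRPS16. MRPL21, MRPL27, MRPL41, MRPS21 and MRPS26 share none. Whether the authors' counting used strand is not given in the sources used here.

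**Figure D3:**
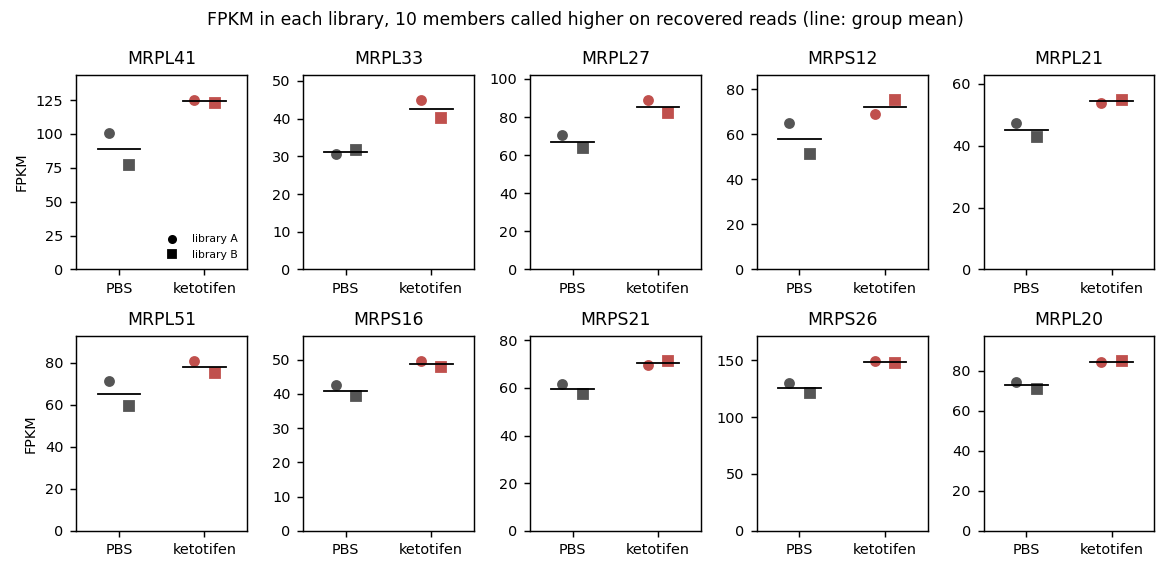
FPKM in each of the 4 libraries for the 10 members called higher on recovered reads, points for libraries and short lines for the group means. In 9 of the 10 genes PBS library B is the lowest of the 4, and in MRPL33 PBS library A is.

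Promoter sequence was available from RefSeq (GRCh38.p14) for 69 of the 78 members, and the 250 bases before the start were searched on both strands for motifs of factors known for nuclear genes of mitochondria. Shown here are 5 that hold little annotated exon: MRPL33 and MRPL20, called higher by voom, MRPL54 and MRPL55, higher in both ketotifen libraries without a call, and MRPS18A, whose groups overlapped. Capitals mark matches, on either strand, to CCGGAAG (the core bound by ETS factors such as GABP) and to GGGCGG (the GC box of SP1).
MRPL33, chr2:27771469-27771718, forward strand: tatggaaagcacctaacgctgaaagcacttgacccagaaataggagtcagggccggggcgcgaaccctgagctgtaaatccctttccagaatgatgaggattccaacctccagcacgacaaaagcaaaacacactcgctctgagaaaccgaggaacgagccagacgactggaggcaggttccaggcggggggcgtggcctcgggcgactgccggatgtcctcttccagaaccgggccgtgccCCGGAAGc
MRPL20, chr1:1407294-1407543, reverse strand: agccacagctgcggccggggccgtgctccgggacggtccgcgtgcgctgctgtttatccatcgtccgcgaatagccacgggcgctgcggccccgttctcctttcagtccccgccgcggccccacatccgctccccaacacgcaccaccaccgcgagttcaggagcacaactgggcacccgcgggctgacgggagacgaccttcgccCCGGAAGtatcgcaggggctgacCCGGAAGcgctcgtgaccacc
MRPL54, chr19:3762432-3762681, forward strand: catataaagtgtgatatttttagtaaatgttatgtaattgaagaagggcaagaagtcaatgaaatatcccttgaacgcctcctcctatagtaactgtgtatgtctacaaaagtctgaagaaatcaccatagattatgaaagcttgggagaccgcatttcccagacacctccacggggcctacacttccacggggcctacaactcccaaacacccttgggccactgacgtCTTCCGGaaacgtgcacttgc
MRPL55, chr1:228109300-228109549, reverse strand: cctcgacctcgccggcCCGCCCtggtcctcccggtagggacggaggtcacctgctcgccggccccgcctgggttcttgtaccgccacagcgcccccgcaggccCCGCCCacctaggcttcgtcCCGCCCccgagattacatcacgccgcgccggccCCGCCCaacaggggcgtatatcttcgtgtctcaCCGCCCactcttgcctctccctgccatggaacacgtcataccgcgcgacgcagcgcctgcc
MRPS18A, chr6:43687792-43688041, reverse strand: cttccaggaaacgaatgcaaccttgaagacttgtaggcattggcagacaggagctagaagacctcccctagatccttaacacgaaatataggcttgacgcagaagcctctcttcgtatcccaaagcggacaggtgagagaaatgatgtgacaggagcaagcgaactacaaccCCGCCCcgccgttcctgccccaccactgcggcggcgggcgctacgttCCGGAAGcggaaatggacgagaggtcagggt
MRPL33 holds its ETS match directly before the start, MRPL20 holds a pair of them, and MRPL55 holds 5 GC boxes and no ETS match.

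CCGGAAG was present in 23 of 69 member promoters (33.3%), against 17.7% of 8678 promoters of tested genes and 8.82% of all 27305 promoters in the table. AAGATGGC, the core of YY1 sites, was present in 5 (7.25%), against 1.97% and 1.37%. The palindrome of NRF1 was present in 1 (1.45%), against 2.03% and 1.13%, and the E-box CACGTG, bound by MYC family factors, in 6 (8.70%), against 9.41% and 6.49%. GGGCGG was present in 38 (55.1%), against 69.4% and 42.3%, CCAAT in 19 (27.5%), against 36.3% and 33.0%, and TATAAA in 2 (2.90%), against 4.77% and 11.1%. These differences in share were not tested. Of the 10 members called by voom 9 had a promoter in the table, and 6 of these held CCGGAAG, against 17 of the other 60. A match is a run of letters in this window and not a bound site.

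Of the other members at the upper end, MRPS28 went from 5.81 and 3.67 FPKM to 6.18 and 6.22 on few reads, with a log2 change of 0.35 ± 0.15 (SE) and a limma adjusted p of 0.245. MRPL12 measured 195 and 177 with PBS and 208 and 209.8 with ketotifen, with a voom adjusted p of 0.0657. Its groups did not overlap, but 68.2% of its exon bases are shared with AC139530.2 on the same strand in GENCODE v29. MRPL44, which resembles ribonuclease III, measured 34.3 and 33.0 FPKM with PBS and 35.9 and 36.7 with ketotifen. MRPL45, which lies near the exit of the peptide tunnel and the inner membrane, measured 48.3 and 48.0 and then 48.9 and 48.0, with a log2 change of 0.01 and a 95% interval of -0.11 to 0.13. The 4 libraries of MRPL45 could hardly be told apart.

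The most abundant member did not differ beyond the spread of its libraries. MRPS34 measured 243 and 245 FPKM with PBS and 239 and 260.2 with ketotifen, with a log2 change of 0.03 and a 95% interval of -0.10 to 0.17. MRPL4 measured 121 and 122 and then 113 and 121, a log2 change of -0.05. MRPS36, which carries a ribosomal name but is known as a subunit of the oxoglutarate dehydrogenase complex, was counted with neither ribosomal subunit. It measured 17.6 and 13.4 FPKM with PBS and 18.3 and 18.4 with ketotifen (log2 change 0.24, limma adjusted p = 0.255). PBS library B alone stood below the other 3 libraries.

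At the lower end no member passed either test. MRPS11, a conserved small subunit protein at chr15:88467453-88480773 on the forward strand, measured 16.9 and 19.1 FPKM with PBS and 14.2 and 16.3 with ketotifen. Its groups did not overlap but came close, with a log2 change of -0.22 ± 0.08 (SE) and adjusted p of 0.202 by limma and 0.0664 by voom. MRPL37, found only in mitochondria, measured 111 and 103 with PBS and 92.9 and 99.1 with ketotifen. MRPS2, a conserved protein of the small subunit, measured 114 and 126 and then 106 and 111. Both lay lower in each ketotifen library than in either PBS library, with log2 changes of -0.15 and -0.15 and voom adjusted p of 0.101 and 0.105. MRPS10 and MRPS27 had log2 changes of -0.11 and -0.09, also without overlap. MRPL58, a peptidyl-tRNA hydrolase related to release factors that became part of the large subunit, had a log2 change of -0.07, from 35.4 and 32.9 to 32.5 and 32.5 FPKM. MRPS30, which despite its name sits in the large subunit, measured 61.7 and 60.5 FPKM with PBS and 58.7 and 59.7 with ketotifen.

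The 3 relatives of a single bacterial small subunit protein pointed in different directions. MRPS18C, which takes the place of the bacterial protein, measured 15.4 and 15.4 FPKM with PBS and 16.8 and 17.6 with ketotifen. MRPS18B, elsewhere in the small subunit, measured 61.4 and 61.2 with PBS and 55.3 and 56.5 with ketotifen. MRPS18A, which sits in the large subunit, measured 49.2 and 53.5 and then 47.6 and 49.6. The groups separated upward for MRPS18C and downward for MRPS18B and overlapped for MRPS18A, with log2 changes of 0.15, -0.13 and -0.08. Limma adjusted p values were 0.21, 0.207 and 0.489, and the difference between the genes was not tested.

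By subunit and origin, the 30 large subunit members with a bacterial counterpart had a median log2 change of 0.08, with 25 above 0 and 5 below, and voom called 4 of them higher, where it called 3.64% of all tested genes higher. Without PBS library B 2 of these 4 were called again and without ketotifen library A none, and the median was 0.03 without PBS library B and 0.12 without PBS library A. This list counts MRPL55, whose tie to a bacterial protein is not settled. The 21 large subunit members listed as without a bacterial counterpart had a median of 0.01, with 11 above 0 and 10 below. They held MRPL41, and voom called 2 of them higher. Not all of these 21 are found only in mitochondria: MRPS18A is a relative of a bacterial small subunit protein, and MRPL58 is related to release factors. The 15 tested conserved small subunit members had a median of 0.05 and 3 voom calls. The 10 listed as without a bacterial counterpart, which include MRPS18B, had 0.05 and 1 voom call. None of these 4 small subunit calls was made again without PBS library B or without ketotifen library B. With equal summed FPKM the medians of all 4 lists were lower, as was that of all tested genes at -0.06. They were 0.03 for the conserved large subunit members and -0.04 for those listed as without a bacterial counterpart. In the small subunit they were 0.0018 and -0.0058 for the same kinds. Taken by subunit alone, the medians were 0.05 for 25 small subunit members and 0.06 for 51 large subunit members. No test of a difference between these lists was made.

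**Figure D4:**
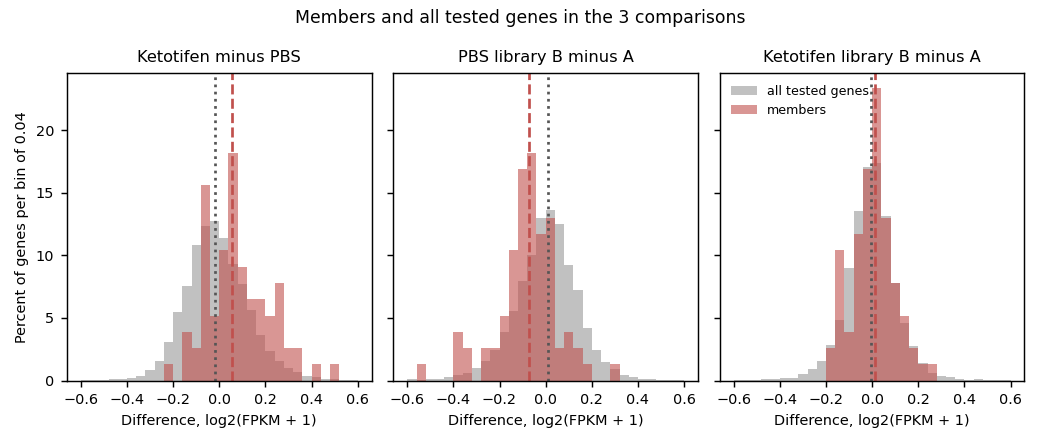
Share of genes by log2 difference for the 77 tested members and for all 10586 tested genes, in 3 panels: ketotifen minus PBS, PBS library B minus A, and ketotifen library B minus A, with the x axis limited to 0.6 either way. Members lie to the right of all genes in the first panel, to the left in the second, and over them in the third.

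In median size, the difference between the PBS libraries was as large as the difference between the groups. The former is between single libraries and the latter between means of 2, which vary less, so the sizes are not like for like. PBS library B minus library A, with 1 library a side and therefore no test, had a median of -0.07 over the 77 members, against 0.01 over all tested genes. Library B was the lower for 58 members, where 47.2% of all genes were below 0. Past a log2 difference of 0.2, 10 members were lower in B and 1 was higher, against 6.78% and 6.08% of all genes. Between the ketotifen libraries the median was 0.01, with no member lower and 2 higher in B, MRPL46 and MRPL50, past 0.2, against 3.93% and 3.12% of all genes. The median size of the difference over members, without sign, was 0.09 between groups, 0.09 within PBS and 0.05 within ketotifen. For 40 members the change under ketotifen was larger in size than the difference between the PBS libraries. The same count over all tested genes was not made, so 40 of 77 has no background to be read against.

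MRPS28 had the largest difference within PBS, -0.54 from 5.81 FPKM in A to 3.67 in B. It was followed by MRPL41 at -0.38, MRPL55 at -0.37, MRPS36 at -0.37 and MRPL36 at -0.35. MRPL55, a large subunit protein whose GC-rich promoter is printed above, measured 21.5 and 16.4 FPKM with PBS and 22.7 and 22.6 with ketotifen. MRPL36 measured 33.9 and 26.3 with PBS and 33.2 and 34.2 with ketotifen. In each of these 5 genes PBS library A lay nearer to the lower of the ketotifen libraries than to PBS library B. MRPL23 went the other way, with 8.27 and 10.5 FPKM in PBS A and B and 10.0 and 11.7 in the ketotifen libraries.

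Set against each PBS library in turn, the median change under ketotifen was 0.03 from library A and 0.09 from library B. Without PBS library A, limma on FPKM called 21 members higher and 2 lower, against 10.0% and 8.27% of all tested genes. Without PBS library B it called 5 higher and 1 lower, against 2.40% and 1.58%. Those 5 were MRPL23, MRPL27, MRPL33, MRPL41 and MRPS26, and the 1 was MRPL37. In these fits the lone PBS library is assumed to vary like the other group. Voom without PBS library B called 4 members higher and 1 lower, against 1.81% and 2.25% of all genes. For MRPL27, MRPL33 and MRPL41 it gave adjusted p of 0.045, 0.0305 and 0.0123. For MRPS12 and MRPL51 the adjusted p without that library was 0.356 and 0.436. Without PBS library A voom called 22 members higher, the 10 among them, and 2 lower, in a fit that called 8.89% and 11.8% of all genes. How PBS library B came to differ was not tested.

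Length moved with the same pattern. The 39 tested members at or under the median length used had a median log2 change of 0.09, with 33 above 0, and a median within-PBS difference of -0.10. The 38 longer members had 0.04, with 22 above 0, and -0.04. Over all tested genes, the medians by quartile of length, shortest first, were 0.05, 0.0025, -0.03 and -0.07, and 63 of the 77 members fell into the shortest quartile, of 243 to 2345 bases. The median of 0.06 over the members was thus near that of short genes in general. The 10 members called by voom had a median length of 997.5 bases, against 1553 for the other 67. The part of length in the calls was not tested beyond the length and GC correction, under which the median change of the members was 0.02. That correction took the exon length of GENCODE v29 and not the length used by the authors. These can differ widely, as for MRPL27 with 3027 and 686 bases.

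The genes that work with the mitochondrial ribosome were read in the same fits, and limma on FPKM called none of them. The 5 tested subunits that carry other names, among them AURKAIP1, CHCHD1 and GADD45GIP1, had a median log2 change of 0.07, with 4 above 0. CHCHD1 went from 29.8 ± 3.68 to 34.7 ± 3.78 FPKM (SD, n = 2). AURKAIP1 measured 138 ± 13.5 and 149 ± 1.77 FPKM, and neither was called by voom. The 22 assembly genes had a median of 0.02, with 13 above 0 and 9 below. Voom called 1 of them higher, RPUSD4, a pseudouridine synthase acting on mitochondrial RNA, at 32.7 ± 3.47 and 39.0 ± 1.40 FPKM (adjusted p = 0.0296), and without PBS library B its voom adjusted p was 0.266. MTG1, a GTPase of large subunit assembly, and MRM1, a ribosomal RNA methyltransferase, had log2 changes of 0.19 and 0.18 without a call.

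The 14 tested translation factors had a median of -0.03, with 5 above 0 and 9 below, and voom called none. MTRFR, a rescue factor for stalled mitochondrial ribosomes, measured 8.995 ± 0.568 FPKM with PBS and 7.59 ± 0.0729 with ketotifen. TSFM, the exchange factor of the elongation factor, and GFM2, which acts in ribosome recycling, had log2 changes of 0.15 and -0.12. Genes of mitochondrial transcription and RNA handling, 12 tested, had a median of 0.04, with 8 above 0 and no voom call. SLIRP and LRPPRC, partners that protect mitochondrial messages, had log2 changes of 0.15 and -0.09, in opposite directions. TFB2M, a transcription factor of the mitochondrial genome, had one of 0.17.

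Of 8 tested regulators of mitochondrial gene expression and growth, voom called ESRRA higher and MYCN lower. ESRRA, a nuclear receptor that drives genes of respiration, measured 27.9 and 23.9 FPKM with PBS and 30.6 and 31.3 with ketotifen (voom adjusted p = 0.0248). MYCN, a transcription factor and oncogene of neuroendocrine tumours, measured 369.7 and 387 FPKM with PBS and 327 and 332 with ketotifen (voom adjusted p = 0.0115). The groups of both genes did not overlap, and limma on FPKM gave adjusted p of 0.151 and 0.123. Without PBS library B the voom adjusted p was 0.248 for ESRRA and 0.0011 for MYCN, and without a ketotifen library neither gene was called. The line is known to carry introduced MYCN, so reads of MYCN may come from the introduced copy, the native gene or both. Their origin was not tested. PPARGC1B, a coactivator of mitochondrial biogenesis, had a log2 change of -0.12.

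Cytosolic ribosomal protein genes, whose products make the ribosome of the cytosol, were compared as the family most alike in function. They were taken by name, as RPL or RPS followed by a number with or without a short suffix. RPLP0, RPLP1, RPLP2 and RPSA fall outside this rule, and RPS27L falls inside it. Of 78 tested, 69 had a change above 0 and 9 below, the median was 0.18, and voom called 41 higher and none lower, while limma on FPKM called none. Of all tested genes voom called 3.64% higher. Both ketotifen libraries lay above both PBS libraries for 65 of the 78, against 23.2% of all tested genes. Of the 41, voom called 33 again without PBS library B, and it called 16 and 21 again when ketotifen library A or B was left out. The same PBS libraries also differed more in this family, with a median of -0.14 for library B minus A against -0.07 in the mitochondrial family. RPS16, for example, measured 1074 and 918 FPKM with PBS and 1314 and 1281 with ketotifen. The difference between the families was not tested.

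Mitochondrial ribosomal protein genes often begin beside another gene read in the opposite direction. In GENCODE v29, 17 of the 78 members (21.8%) had a protein coding start on the other strand within 1000 bases upstream, and 14 of these lay within 100 bases. The share was 10.4% of the protein coding tested genes. Only pairs that do not overlap at their starts were counted, so overlapping pairs are missing from both shares. MRPL27 begins 6 bases from EME1 and MRPL21 7 bases from IGHMBP2. MRPL36 lies 34 bases from NDUFS6 and MRPL47 36 bases from NDUFB5, and both partners encode subunits of respiratory complex I. In 1 case both genes are members: MRPS11 and MRPL46 (chr15:88459476-88467419, reverse strand) start 34 bases apart. MRPL46, of the large subunit, measured 30.4 and 27.1 FPKM with PBS and 27.8 and 33.6 with ketotifen, a log2 change of 0.09, while MRPS11 had one of -0.22. The ketotifen libraries of MRPL46 lay further apart than its PBS libraries, and its groups overlapped.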

How the data were processed

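The authors deposited 1 table of FPKM values for 16376 genes in 4 libraries, 2 per group, named by symbol. Build GRCh38 and the tools fastp, HISAT2 and HTSeq are listed, per the submitters' processing notes. Their versions, the annotation and the use of strand were not given in the sources used here. Per the labels' protocols the library kit was stranded and selected mRNA.

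Genes whose mean reached 1 FPKM were tested on log2(FPKM + 1) with limma 3.58.1 (trend, two-sided) in R 4.3.3, adjusted by Benjamini-Hochberg over all 10586 genes, with a threshold of 0.05. Whole reads were recovered from the steps of the values with Python 3.11.15 and tested with voom. The recovered numbers are lower bounds where a common factor remained. The test and the recovery were tested on simulated data. Between single libraries, a log2 difference of 0.2 was counted. Promoters came from RefSeq and gene models from GENCODE v29.

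The members and lists were chosen with earlier results of these data known. Named members were those past the threshold, the 8 largest and 8 smallest changes, the 6 highest and 6 lowest levels, the 5 largest PBS differences and a set of functional interest, and 3 genes per related list by p. MRPS16, MRPS21, MRPL20, MRPL46, MRPL16 and MRPL53 were added after their values were seen. Alternatives covered pseudocount, filter, scaling, length and GC, voom, a block on the column letter, and leaving out each library. Some marker and related genes are not reported here.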

Additional observations from a re-analysis of the deposited data

How the results depend on the processing

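Limma on FPKM called 0 members, 1 (MRPL33) with a minimum mean of 5 FPKM, and voom on recovered reads 10. In the same order, these fits called 0.00945%, 0.194% and 3.64% of all their genes higher and 0.113%, 0.155% and 3.78% lower. Leaving out 1 library at a time, the number called ranged from 0 to 24 over both methods, highest without PBS library A. The median change of the members ranged from 0.026 to 0.094 in these fits, against 0.06 with all libraries. It was 0.0049 with equal summed FPKM, where the median of all tested genes moved from -0.02 to -0.06 as well, and 0.021 with the length and GC correction. The median of PBS library B minus A became -0.039 with equal summed FPKM and -0.047 with the length and GC correction. The cause was not tested. Over 38 members followed through the alternatives, 610 of 722 values kept their direction and side of the threshold, 95 newly passed it and 17, none of them called, changed sign. Of the 95, 42 came without PBS library A. With equal summed FPKM the log2 change was -0.042 for MRPL45 and -0.019 for MRPS34, with quantile normalization -0.0073 and -0.067, and with the length and GC correction -0.0545 and -0.0356, and 0.0501 for MRPL42. Leaving out 1 library, the range was -0.0085 to 0.36 for MRPL36, -0.14 to 0.0447 for MRPL42, -0.0033 to 0.022 for MRPL45, -0.0447 to 0.23 for MRPL46 and -0.0274 to 0.094 for MRPS34. The column letters could not be tied to the numbered replicates of the labels and are not known to pair libraries. A replicate block on the letter, with 1 residual degree of freedom, called 11 members by limma and 16 by voom. The 11 were all higher, and of the 16, 13 were higher and 3 lower. The same fits called 3.84% of all tested genes higher and 2.18% lower by limma, and 6.12% and 7.46% by voom. Over all tested genes, the B minus A differences of the groups had a Pearson correlation of 0.10. The block and the voom fits that leave out a library were chosen after seeing the data. With 2 libraries a group, the spread rests on few values. Members with few reads, such as MRPS28 and MRPS24, are measured less exactly, and why their reads were few was not tested.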
